A study of Mus musculus with 90 samples.

Results

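In livers of unfed mice at ZT14 (zeitgeber time in hours after lights on), the glucocorticoid receptor GR and the forkhead factor FOXO1 shared many binding sites, and the sites described here are those that lay close to one another. A shared site was a GR peak that overlapped a FOXO1 peak by at least 1 bp, and a clustered site was a shared peak whose midpoint had another shared midpoint within 10 kb. Of 10446 GR peaks, 5098 were shared, and 1892 of these were clustered, which was 37.1% of the shared peaks and 18.1% of all GR peaks. The other 3206 shared peaks were isolated, 5348 GR peaks had no FOXO1 peak, and 3448 of 8546 FOXO1 peaks had no GR peak. Accessible chromatin was given by 83592 DNase hypersensitive sites (DHSs).

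The study asked how food intake changes liver transcription through glucocorticoids and insulin. The mice were labelled C57BL/6, the wild-type and Nr3c1 fl/fl mice being C57BL/6N and the Irs1 and Irs2 floxed mice of C57BL/6J background by the study's methods, and all were under night-restricted feeding for 4 days, the uninjected and injected wild-type mice as males of 10 weeks. For the peaks, 2 GR and 2 FOXO1 libraries were made from wild-type livers at ZT14-unfed, each from pooled livers of 3 to 4 mice. RNA was measured in single mice, in 5 experiments whose values were normalized apart. Uninjected wild-type mice were killed at ZT10 or, unfed or fed, at ZT14 (2 in each group), and their RNA was depleted of ribosomal RNA, while all other RNA was poly(A)-selected. Injected wild-type mice (4 per group, all at ZT14) received vehicle (PBS) and no food, or were fed after vehicle, after 1 mg/kg dexamethasone (dex, a synthetic GR agonist), after S961 (an insulin receptor antagonist, at a dose labelled 44 nM/mouse), or after both agents, given before the meal. Nr3c1 fl/fl mice, in which the gene for GR can be deleted, received AAV-CRE, with Cre driven by a hepatocyte promoter, or AAV-GFP, and were unfed at ZT14 (4 each). Irs1 fl/fl, Irs2 fl/fl mice with Alb-Cre (IRSdKO, lacking the insulin receptor substrates in hepatocytes) and without it (IRSfl) were fed at ZT14, and both groups had received 1 mg/kg dex (4 each). Diet-induced obese (DIO) mice after 10 weeks of high-fat diet and lean mice on chow, both started on their diet at 5 weeks of age, were unfed or fed at ZT14 (3 each). In whole liver, fewer cells of a type and less RNA per cell cannot be told apart.

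GR is a nuclear receptor that moves to the nucleus when it binds a glucocorticoid and attaches to DNA at glucocorticoid response elements (GREs), which are inverted repeats of a short hexamer, or near other factors. FOXO1 is a factor that insulin signalling keeps out of the nucleus through AKT, so that it is active in the liver between meals. Both are known regulators of gluconeogenesis, the making of glucose that the liver releases during a fast. Enhancers near one another are often described as acting on the same gene, and sites of both factors have been placed upstream of genes such as Pck1, G6pc and Igfbp1.

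The DNA of 11 clustered peaks shows what such sites look like. The first set lies near genes that fasting, GR or FOXO1 is known to control, and the second set holds the members with the GRE and forkhead letters nearest to one another. Each line is the 180 bp peak on the plus strand of NCBIM37 (mm9), in lower case, with capitals for the letters of a GRE core (ACANNNTGT), a GR hexamer (AGAACA) or a forkhead motif (TGTTTAC), on either strand.
Pck1, 270 bp upstream of the TSS, chr2:172978189-172978368: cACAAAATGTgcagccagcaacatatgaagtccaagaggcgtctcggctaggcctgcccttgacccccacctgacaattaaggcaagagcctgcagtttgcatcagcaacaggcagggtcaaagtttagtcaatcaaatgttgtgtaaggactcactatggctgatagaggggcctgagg
G6pc, 5172 bp upstream, chr11:101223613-101223792: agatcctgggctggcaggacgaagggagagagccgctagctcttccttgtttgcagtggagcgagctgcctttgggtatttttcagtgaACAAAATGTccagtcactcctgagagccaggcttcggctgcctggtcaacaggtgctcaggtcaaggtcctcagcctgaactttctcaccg
Igfbp1, 3055 bp upstream, chr11:7094640-7094819: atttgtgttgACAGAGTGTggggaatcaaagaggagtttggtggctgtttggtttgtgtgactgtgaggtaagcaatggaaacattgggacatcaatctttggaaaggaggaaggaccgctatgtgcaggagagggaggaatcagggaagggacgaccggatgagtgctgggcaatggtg
Igfbp1, 4868 bp upstream, chr11:7092827-7093006: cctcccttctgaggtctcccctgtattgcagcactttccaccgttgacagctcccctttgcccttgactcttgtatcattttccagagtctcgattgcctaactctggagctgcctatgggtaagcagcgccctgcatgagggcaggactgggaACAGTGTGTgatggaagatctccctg
Tat, 2474 bp upstream, chr8:112511773-112511952: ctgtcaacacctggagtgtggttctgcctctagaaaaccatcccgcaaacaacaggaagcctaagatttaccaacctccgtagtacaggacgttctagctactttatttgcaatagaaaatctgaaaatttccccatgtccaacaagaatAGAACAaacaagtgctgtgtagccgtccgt
Insig2, 2980 bp downstream of the TSS in an intron, chr1:123226096-123226275: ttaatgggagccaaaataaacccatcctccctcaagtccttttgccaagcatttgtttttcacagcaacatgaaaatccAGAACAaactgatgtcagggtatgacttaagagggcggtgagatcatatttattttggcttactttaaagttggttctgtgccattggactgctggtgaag
Insig2, 3425 bp upstream, chr1:123232501-123232680: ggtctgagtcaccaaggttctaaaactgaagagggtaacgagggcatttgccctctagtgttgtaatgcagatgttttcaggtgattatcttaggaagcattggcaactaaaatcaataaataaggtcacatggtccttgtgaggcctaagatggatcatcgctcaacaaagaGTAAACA
Scn2a, 65965 bp upstream, in an intron of Scn3a, chr2:65392859-65393038: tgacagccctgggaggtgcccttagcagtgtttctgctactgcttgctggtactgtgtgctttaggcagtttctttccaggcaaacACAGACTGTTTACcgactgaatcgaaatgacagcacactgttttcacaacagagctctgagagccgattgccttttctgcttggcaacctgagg
Ascc1 and Ddit4, intergenic, chr10:59442007-59442186: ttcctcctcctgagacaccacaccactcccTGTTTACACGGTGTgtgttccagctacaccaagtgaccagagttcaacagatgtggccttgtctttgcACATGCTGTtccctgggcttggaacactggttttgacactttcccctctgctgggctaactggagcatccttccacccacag
Slc40a1, 917 bp downstream of the TSS in an intron, chr1:45981432-45981611: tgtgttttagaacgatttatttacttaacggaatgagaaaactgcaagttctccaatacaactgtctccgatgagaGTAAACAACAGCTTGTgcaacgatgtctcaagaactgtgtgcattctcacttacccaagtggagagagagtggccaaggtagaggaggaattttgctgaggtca
Selenop, 32001 bp upstream, chr15:3186456-3186635: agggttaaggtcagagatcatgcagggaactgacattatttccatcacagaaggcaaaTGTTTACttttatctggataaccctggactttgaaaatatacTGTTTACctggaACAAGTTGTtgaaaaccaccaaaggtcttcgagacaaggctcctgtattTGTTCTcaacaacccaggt

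The Pck1, G6pc and both Igfbp1 peaks held a GRE core, the Tat peak and the intronic Insig2 peak held a GR hexamer, and the upstream Insig2 peak held a forkhead motif. In the second set the motif centres lay 5 bp apart at Scn2a and shared 3 letters, 6 bp apart at Ascc1 with 2 shared letters, 8 bp apart at Slc40a1, and 13 bp apart at Selenop, where no letter was shared. The Ascc1 and Slc40a1 peaks overlapped no DHS, and the other 9 did. A match of letters describes the window and does not show which factor was bound through it.

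The members formed 818 clusters, most of them pairs. There were 620 clusters of 2, 155 of 3, 31 of 4, 9 of 5 and 3 of 6, spread over 21 chromosomes. The outer midpoints of a cluster lay 4722 bp apart in the median (quartiles 1961 to 8012, range 409 to 28361), and neighbouring midpoints 3684 bp apart, with 143 of 1074 gaps under 1 kb. The cutoff of 10 kb cut through a continuous distribution, since 91 members had their nearest shared peak at 9 to 10 kb and 78 isolated peaks at 10 to 11 kb, and the nearest values inside and outside were 9974 and 10005 bp. Within a member, the GR and FOXO1 midpoints lay 30 bp apart in the median (quartiles 14 to 54), as they did in isolated shared peaks (30 bp, 14 to 56). In 839 members both midpoints lay within 25 bp.

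**Figure D1:**
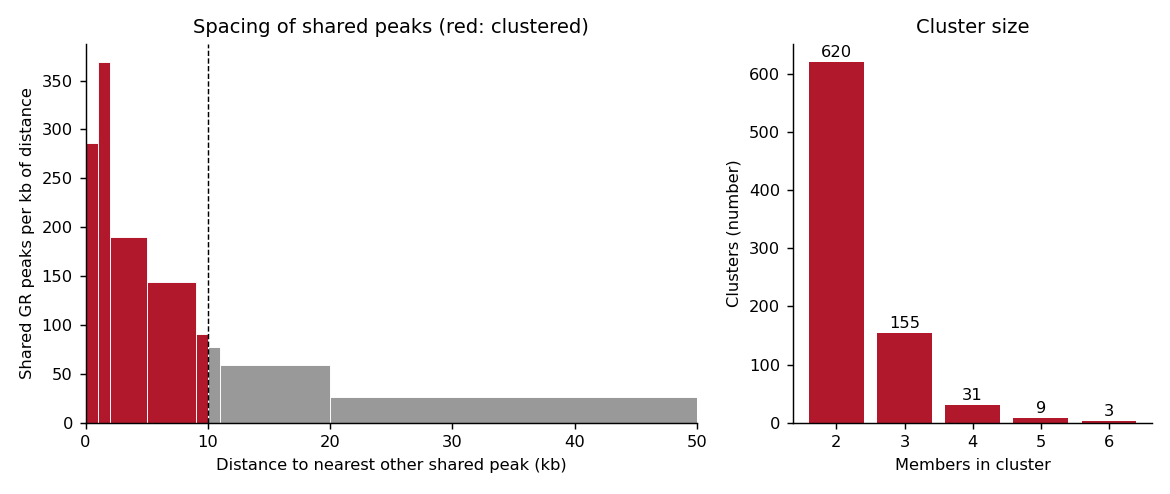
Left, number of shared GR peaks per kb of distance to the nearest other shared peak midpoint (kb), with clustered peaks in red and the 10 kb cutoff dashed. Right, number of clusters by members per cluster, where 620 of 818 are pairs.

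By the same distance rule, 26.9% of GR peaks without FOXO1 (95% Wilson interval 25.7 to 28.1) and 14.7% of FOXO1 peaks without GR (13.6 to 16) had a peak of their own list within 10 kb, and so did 70.8% of DHSs. The lists differ in size, which changes how near the next peak is, so these shares cannot be compared as such. These and all later intervals cover counting error only, and neighbouring peaks are not independent of one another.

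Most members lay away from promoters, in introns (45.6%) or between genes (49.9%), and 4.49% lay in exons. Within 2 kb of a TSS were 17.4% of members (15.8 to 19.2), near the 15.9% of isolated shared peaks and the 19.3% of GR peaks without FOXO1, while 40.6% of FOXO1 peaks without GR lay there. A DHS overlapped 87.6% of members, 90.3% of isolated shared peaks, 74.3% of GR peaks without FOXO1 and 78.7% of FOXO1 peaks without GR. In 614 clusters (75.1%) every member overlapped a DHS, and in 17 none did. The members thus mostly sat in chromatin that the DHS list counts as open, a list called on all DNase libraries together, fed and unfed.

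The span of a cluster often lay within a single gene. In 348 clusters (42.5%) the whole span lay inside 1 gene, 80 (9.78%) held the TSS of a tested gene, and 236 (28.9%) had a member within 2 kb of a TSS. For 768 (93.9%) all members had the same nearest tested gene. Between the outer members lay 305 DHSs that overlapped no member, of which 111 (36.4%) carried GR or FOXO1. Of all DHSs, those under members included, 13.5% did. The spans were set by the same peak lists, so these shares cannot be compared as such. Unshared GR peaks numbered 108 inside spans, in 101 clusters, and unshared FOXO1 peaks 51, in 49 clusters.

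Motif letters were much alike in clustered and isolated shared peaks. In 180 bp around each midpoint, a GRE core was present in 18.7% of members, 18.1% of isolated shared peaks and 22.2% of GR peaks without FOXO1. It was present in 6.7% of FOXO1 peaks without GR and 6.45% of all DHSs. The windows of shared peaks were centred on the GR midpoint, and those of FOXO1 peaks without GR on the FOXO1 midpoint. A GR hexamer was present in 26.3% of members and 15.3% of all DHSs. The forkhead motif was present in 10.9% of members, 12.7% of isolated shared peaks, 2.8% of GR peaks without FOXO1, 25.5% of FOXO1 peaks without GR and 4.66% of all DHSs. So members carried the forkhead letters at a share between those of the unshared GR and unshared FOXO1 peaks. The part of the different window centres in this was not tested.

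Letters of other liver factors were counted in the same way. The C/EBP motif (TTGCNNAA) was in 31.4% of members, 33.7% of isolated shared peaks and 13.9% of all DHSs, and the nuclear receptor hexamer (AGGTCA) in 26.1% of members and 17.9% of all DHSs. The STAT motif (TTCNNNGAA) was in 9.41% against 6.24%, and the HNF4 element (CAAAGTCCA) in 2.22% against 1.1%. The E-box (CACGTG) at 3.22% against 3.47% and the CRE (TGACGTCA) at 0.529% against 0.499% differed little between members and all DHSs. A GRE core and forkhead motif can overlap in the letters TGT. In all, 36 members (1.9%) held both, and 72.4% held neither. Both were held by 1.45% of members in pairs, 3.87% in clusters of 3 and 0 of 187 in clusters of 4 to 6. Counted over a whole cluster, 301 had a GRE core in at least 1 member, 197 a forkhead motif, 71 (8.68%) both, and 391 neither. The windows had a median of 45% G and C, against 44.4% in isolated shared peaks and 49.4% in FOXO1 peaks without GR.

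**Figure D2:**
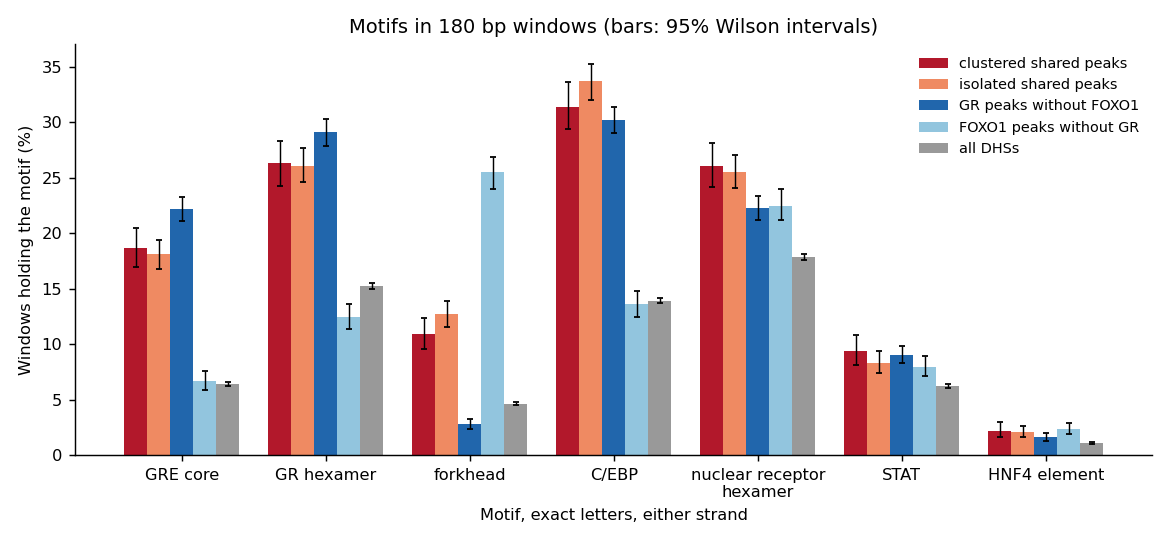
Share of 180 bp windows (%) that held the exact letters of each motif on either strand, by region class, with 95% Wilson intervals. Clustered and isolated shared peaks lie close to each other for each motif, with GRE cores at 18.7% and 18.1%.

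The clusters with the most members included those at Zbtb16, Nr0b2 and Tat. The longest, with 6 members over 28361 bp (chr9:48531773-48560313), lay inside Zbtb16, which encodes the zinc finger repressor PLZF, and 4 of its 6 members held a GRE core. A second group of 6 (chr9:3015224-3036023) lay 299544 bp from the nearest tested gene, Alkbh8, and 3 of its windows were repeated. A window was counted as repeated when at least 50% of its 24-base words occurred in GR or DHS windows over 300 bp away, the same cluster included. Reads may not be assigned to this group with certainty. The third, of 6, was nearest to Timm21, an import protein of mitochondria. Clusters of 5 lay nearest to Ptp4a1, Mir186, Med18, Nr0b2, Tat, Irf2bp2, Onecut1, Bcl6 and Eif1a. Nr0b2 encodes SHP, a repressor in bile acid feedback, and its nearest member lay 253 bp upstream of the TSS. At Tat (chr8:112496993-112511952), the gene for the first enzyme of tyrosine breakdown, 5 members lay upstream, at 17254, 10854, 7990, 6199 and 2474 bp, with 3 of them in a DHS and none with the full GRE core or forkhead letters. In 7 clusters, 11 members had repeated windows by this measure, and the rest of the genome was not searched.

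Further liver genes had 2 to 8 members within 50 kb. Igfbp1, for a secreted protein that binds insulin-like growth factors, had 5, at 45270, 44548, 41281, 4868 and 3055 bp upstream. Pck1, for phosphoenolpyruvate carboxykinase, had 2 at 6092 and 270 bp upstream, and G6pc, for glucose-6-phosphatase, had 2, at 5172 bp upstream and 11 bp downstream. Cps1, for the first enzyme of the urea cycle, had 4, the nearest 128 bp upstream, and Cyp7a1, for the rate-limiting enzyme of bile acid synthesis, had 4, the nearest at 177 bp. Bhmt2 and Dmgdh, the latter of choline and betaine breakdown, had 8 within 50 kb, and the fibrinogen genes Fga, Fgb and Fgg had 7. No member lay within 50 kb of Angptl4, Fkbp5, Ulk1, Irs2, Per1, Tsc22d3 or Sgk1.

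**Figure D3:**
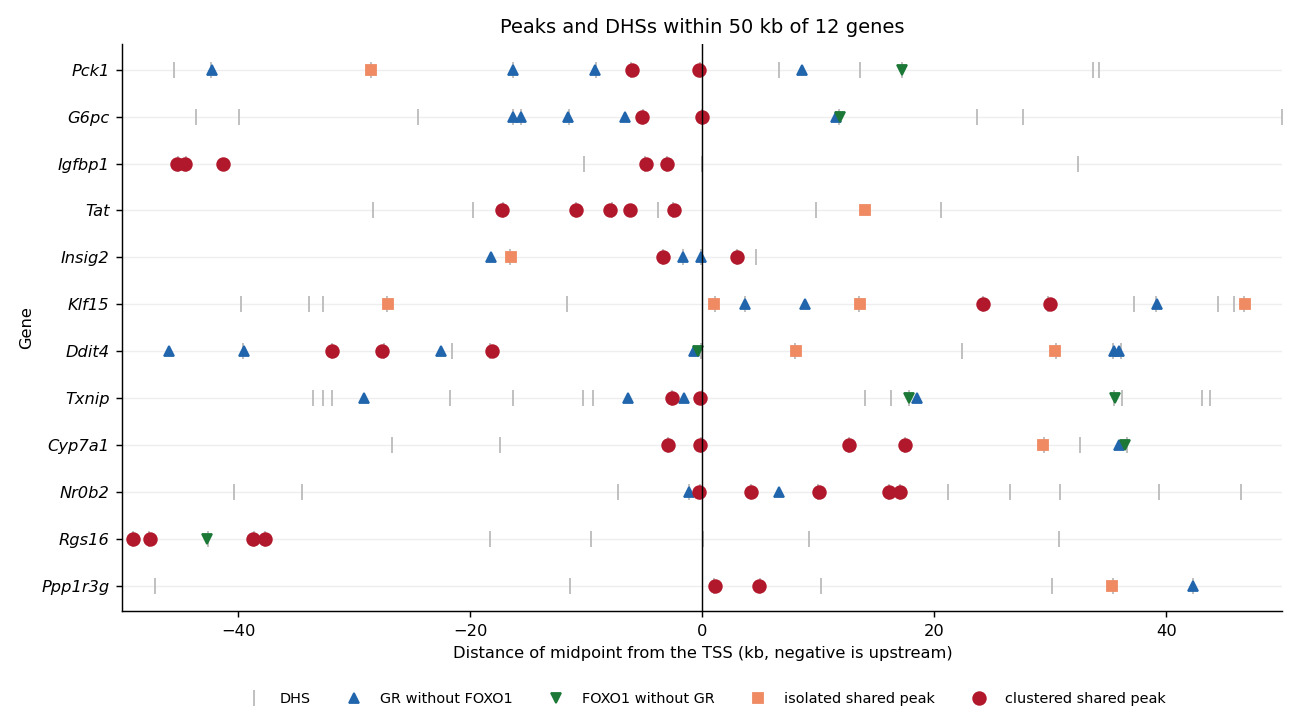
Distance (kb) of clustered shared peaks, isolated shared peaks, unshared GR and FOXO1 peaks and DHSs from the TSS of 12 genes, with negative values upstream. Tat and Igfbp1 have 5 clustered peaks upstream, and Klf15 has 2 against 4 isolated shared peaks.

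A gene was taken as near a cluster when a member lay within 50 kb of its TSS. This held for 983 of 12538 tested genes with a position (7.84%), and for 1248 members (66%). The share rose with expression, from 4.13% of genes at 0.5 to 2 RPKM to 25.9% above 50 RPKM (reads per kilobase of transcript, scaled to library size). Of the lists of liver genes, 13 of 20 amino acid breakdown and urea cycle genes, 12 of 20 secreted plasma proteins, 10 of 20 liver transcription factors, 9 of 20 glucocorticoid-induced and 9 of 20 FOXO-linked genes, 7 of 16 fatty acid oxidation genes, 4 of 12 gluconeogenesis genes, 4 of 16 fatty acid synthesis genes, 3 of 18 clock genes and 2 of 18 insulin signalling genes were near a member. Many genes of these lists are highly expressed, and their level was not matched. The lists were chosen with earlier results of these data known, so their counts here and below are not a test.

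RNA libraries differed in ways that touch the values below. The deleted genes were checked first. Nr3c1 was 12.8, 14.5, 13.2 and 16.2 RPKM after AAV-GFP and 3.93, 4.23, 4.14 and 5.35 after AAV-CRE, and Irs1 was 2.21, 4.7, 4.73 and 4.5 in IRSfl and 0.149, 0.155, 0.321 and 0.17 in IRSdKO. Irs2 did not pass the test, and its groups overlapped (0.614, 1.63, 5.61 and 0.929 against 0.272, 1, 0.932 and 0.886), so that only the loss of Nr3c1 and Irs1 RNA was seen. IRSdKO mouse 1 and AAV-CRE mouse 3 stood apart from their groups in several genes, and without them 365 genes near members changed with IRS loss and 133 with GR loss, in place of 247 and 178. In the IRS experiment no value exceeded 914 RPKM, while the highest in other experiments were 18853 to 60597, so the levels of the most abundant genes, Pck1 and Tat among them, are compressed there. Replicate 4 of the injected mice has library numbers apart from those of replicates 1 to 3. Within an experiment, the read depth recovered from the steps of the values differed by 1.24 to 2.08 times between libraries. Hepatocyte markers summed to 30237 to 76996 RPKM per library, or 2756 to 3447 in the IRS experiment, and no marker list of another cell type was at 0.

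Changes of expression were tested with limma on log2(RPKM + 0.5), called at a Benjamini-Hochberg adjusted p under 0.05, and each fold change below is on that scale with its SE. Genes near a member were compared with genes that had an isolated shared peak but no member, unshared peaks only, or no peak within 50 kb. Genes near a member could also have isolated or unshared peaks, and genes near an isolated shared peak could also have unshared ones. The comparisons within an experiment share libraries, so they are not independent.

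Genes near clustered peaks included many that fell after a meal. In uninjected mice 107 of 887 changed (6.75% of all tested genes did), 45 higher and 62 lower after the meal, and the share lower was 6.99% (5.49 to 8.86) near members, 3.46% near isolated shared peaks, 1.23% near unshared peaks and 0.496% without a peak, with 1.88% of all tested genes. The share higher was 5.07% near members and 4.87% of all. With median-ratio scaling the counts were 25 higher and 95 lower. Of the 4 gluconeogenesis genes near a member (Pck1, G6pc, Got1, Slc25a25) 4 fell, with a median of -1.72 (log2) against 0.12 for all genes. With 2 mice per group the count rested on single libraries, since 10 genes near members changed without ZT14-fed replicate 2, 21 without ZT14-fed replicate 1 and 54 without ZT14-unfed replicate 2.

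Pck1 was 1233 and 1318 RPKM at ZT14-unfed and 289 and 263 at ZT14-fed, with no overlap (-2.21, SE 0.10, adjusted p = 0.000179). G6pc was 247 and 258 against 31.8 and 29.5 (-3.02, SE 0.12, adjusted p = 8.74e-05). Igfbp1 fell furthest of the study genes, from 85.7 and 142 to 0.812 and 0.907 (-6.35, SE 0.22, adjusted p = 8.74e-05). Every fed mouse was below every unfed mouse for these genes. Tat was 1204 and 1274 against 411 and 409 (-1.59, SE 0.20, adjusted p = 0.00837). The rises were led by Creld2, a protein of the endoplasmic reticulum, at 34.4 and 21.1 against 92.7 and 159 (2.15, SE 0.33, adjusted p = 0.0166).

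Between ZT10 and ZT14-unfed, 126 of 887 genes near a member changed (14.2%, against 9.06% of all tested genes), 61 higher and 65 lower at ZT14 (89 and 34 with median-ratio scaling). These groups differ in time of day and light phase as well as in hours without food, which cannot be told apart. The comparison is named time without food below. The share higher was 6.88% (5.39 to 8.74) near members, 3.37% near isolated shared peaks, 1.32% near unshared peaks and 0.744% without a peak, with 1.96% of all genes, while the share lower, 7.33%, was near that of all genes (7.1%). G6pc was 48 and 38.6 at ZT10 and then 247 and 258 at ZT14-unfed (2.54, SE 0.12, adjusted p = 0.000527), and Igfbp1 was 15.9 and 18.3 and then 85.7 and 142 (2.66, SE 0.22, adjusted p = 0.00284). For Pck1 the values were 1126 and 981 and then 1233 and 1318. Tat was 601 and 375 and then 1204 and 1274 (1.38, SE 0.20, adjusted p = 0.0117). The ZT14-unfed mice are the ones the meal was compared with.

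In vehicle-injected mice the meal changed 49 of 917 genes near a member (3.12% of all tested genes changed; 104 genes near members with the replicate block and 118 with a term for replicate 4), 21 higher and 28 lower (13 and 39 with median-ratio scaling), and the share lower was 3.05% near members, 1.01% near isolated shared peaks and 0.581% over all genes (0.282% near unshared peaks, 0.0971% without a peak). The share higher was 2.29% against 2.54% of all. Pck1 was 1468, 1472, 1319 and 1121 RPKM unfed and 579, 643, 690 and 731 fed, with no overlap (-1.02, SE 0.19, adjusted p = 0.00808). Igfbp1 was 170, 183, 82.2 and 42.8 unfed and 3.69, 3.28, 6.8 and 11.2 fed (-4.08, SE 0.56, adjusted p = 0.00292). Rgs16, a regulator of G protein signalling with 4 members near it, was 44.2, 42.3, 21.2 and 24.5 unfed and 1.42, 4.72, 9.15 and 1.21 fed (-3.15, SE 0.53, adjusted p = 0.00545). The groups did not overlap in these genes. Kupffer and macrophage markers summed to 74.2 to 113 RPKM after the meal and 52.5 to 66.5 before it, with 4 of 7 higher, and their part in the result was not tested.

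Dex in fed mice raised a set of known GR-responsive genes near members. Of 917 genes, 64 changed (3.19% of all tested genes did), of which 37 were higher and 27 lower (49 and 14 with median-ratio scaling), and the share higher was 4.03% near members, 1.8% near isolated shared peaks, 0.564% near unshared peaks and 0.267% without a peak, with 0.995% over all genes. The share lower was 2.94%, against 2.19% of all. Of the 9 glucocorticoid-induced genes near a member, from a list chosen with earlier results of these data known, 7 rose, with a median of 1.29 against -0.10 for all genes. With equal replicate numbers as a block, 134 genes near members changed, and with a term for replicate 4, 149. Endothelial markers summed to 56.4 to 73.6 RPKM after dex and 69.7 to 81.6 after vehicle (2 of 6 lower, Clec4g and Kdr), and Kupffer and macrophage markers to 46.7 to 75.5 and 74.2 to 113 (1 of 7 lower, Cd5l), and their part in the result was not tested.

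Tat was 796, 730, 933 and 1040 RPKM after vehicle and 2096, 2331, 1830 and 2285 after dex (1.29, SE 0.22, adjusted p = 0.00303). Ddit4, an inhibitor of mTORC1 signalling, was 3.83, 2.61, 5.46 and 6.13 against 32.9, 30.2, 27.4 and 32.2 (2.70, SE 0.29, adjusted p = 8.57e-05). Every dex-treated mouse was above every vehicle mouse for both genes. Igfbp1 was 3.69, 3.28, 6.8 and 11.2 against 65.8, 42.9, 32 and 25.6 (2.70, SE 0.56, adjusted p = 0.0104), again without overlap. Lcn2, an acute-phase protein, was 14.3, 11.9, 61.6 and 11.8 against 231, 243, 200 and 112 (3.29, SE 0.64, adjusted p = 0.00707). Klf15, a factor of amino acid use, was 46, 43.8, 44.4 and 64.1 against 77.7, 95.9, 75.7 and 107 (0.84, SE 0.16, adjusted p = 0.0065). Pck1 was 579, 643, 690 and 731 after vehicle and 985, 1236, 949 and 955 after dex. Its groups did not overlap, but the test was not passed (0.64, SE 0.19, adjusted p = 0.0744).

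S961 in fed mice changed 43 of 917 genes near a member (1.92% of all tested genes changed; 81 and 88 genes near members with the block and the term), 32 higher and 11 lower (46 and 4 with median-ratio scaling), with 3.49% higher near members, 1.72% near isolated shared peaks and 0.734% near unshared peaks, and 0.96% over all genes. The share lower was 1.2% against 0.96%. G6pc was 72, 30, 80.6 and 101 after vehicle and 153, 258, 236 and 284 after S961 (1.80, SE 0.33, adjusted p = 0.00822). Txnip, an inhibitor of thioredoxin, was 26.8, 18.2, 23.6 and 25.5 against 68.4, 156, 93.6 and 184 (2.30, SE 0.38, adjusted p = 0.00409), and Gm15441 overlaps it on the opposite strand, so reads of the pair cannot be told apart. Cyp7a1 fell from 136, 111, 147 and 160 to 52.8, 12.1, 52.5 and 20.9 (-2.22, SE 0.37, adjusted p = 0.004). Groups did not overlap for any of these genes. Tat, at 430, 1114, 429 and 695, did not pass the test against vehicle (-0.50, adjusted p = 0.319).

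After both agents 147 of 917 genes near a member changed (10.6% of all tested genes did; 235 and 239 near members with the block and the term), 94 higher and 53 lower (126 and 24 with median-ratio scaling). The share higher was 10.3% near members, 5.32% near isolated shared peaks, 1.55% near unshared peaks and 0.582% without a peak, with 2.68% of all genes, and the share lower was 5.78% against 7.88% of all. Igfbp1 reached 108, 197, 79 and 62.8 RPKM (4.07, SE 0.56, adjusted p = 0.000197 against vehicle), and Rgs16 reached 61.9, 85.8, 76.5 and 80.1 (4.41, SE 0.53, adjusted p = 5.39e-05). Gadd45b, a stress-response gene, was 0.604, 0.386, 1.52 and 1.21 after vehicle and 18.6, 27.1, 12.5 and 22.8 after both (3.88, SE 0.47, adjusted p = 6.33e-05), and Hhex, a homeobox factor of liver development, was 41.6, 67.8, 36.8 and 31.6 against 6.26, 3.14, 12.7 and 12.3 (-2.42, SE 0.43, adjusted p = 0.00167). No mouse of one group reached the range of the other.

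Set directly against S961, dex gave 61 genes near members higher and 99 lower (7.43% of all tested genes changed, and by direction 6.65% and 10.8%, against 2.8% and 4.62% of all tested genes). Tat was higher after dex (1.79, SE 0.22, adjusted p = 4.71e-05), as were Ddit4 and Lcn2, and Txnip and G6pc were higher after S961. Macrophage markers were lower than after vehicle in 3 of 7 genes with S961 and in 4 of 7 with both agents, and their part in the results was not tested.

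Loss of GR in hepatocytes of unfed mice lowered many genes near members. Of 930 genes, 178 changed (19.1%, against 6.68% of all tested genes), of which 94 were lower and 84 higher after AAV-CRE (113 and 48 with median-ratio scaling). The share lower was 10.1% (8.33 to 12.2) near members, 4.49% near isolated shared peaks, 1.07% near unshared peaks and 0.254% without a peak, with 2.23% of all genes, and the share higher was 9.03%, 7.29%, 4.16% and 2.06%, with 4.45% of all. The share lower was 8.45% with 1 member near, 8.89% with 2, 9.82% with 3 and 18% (12 to 26.2) with 4 or more. The share higher rose too, at 7.04%, 8.03%, 11% and 12.6%. Some other comparisons also rose, as the share lower after the meal in vehicle-injected mice did (1.47%, 2.61%, 3.12% and 6.14%). Others did not rise steadily, as with the share lower after IRS loss (14.1%, 12.9%, 8.93% and 10.8%) and after the lean meal (14.5%, 16.7%, 13.6% and 23%). For genes above 50 RPKM the share changed in either direction was 26.8% near members and 3.72% without a peak, and for genes of 0.5 to 2 RPKM 3.7% and 1.13%.

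Zbtb16, which holds the longest cluster, was 16.3, 8.17, 12.2 and 13.8 RPKM after AAV-GFP and 0.617, 0.573, 0.602 and 0.847 after AAV-CRE (-3.46, SE 0.19, adjusted p = 7.15e-06). Lpin1, a phosphatidate phosphatase, was 222, 156, 129 and 165 against 9.04, 5.57, 5.8 and 7.46 (-4.50, SE 0.18, adjusted p = 6.87e-07), the largest fall of a gene near a member. Tat was 2176, 1287, 1448 and 1156 against 779, 559, 1011 and 617 (-1.03, SE 0.22, adjusted p = 0.0226). The groups did not overlap in these 3 genes. Igfbp1 was 91.1, 106, 43.8 and 77.2 against 8.41, 9.46, 25.6 and 9.51 (-2.62, SE 0.35, adjusted p = 0.00204). Pck1 was 2266, 1918, 1857 and 2237 against 1148, 1008, 1878 and 1106 (-0.73, SE 0.18, adjusted p = 0.04), and mouse 3 after AAV-CRE overlapped the control range. That call was kept without this mouse but lost in 12 of 17 alternative settings, among them the removal of any of the other 7 mice. G6pc did not pass the test (-0.51, adjusted p = 0.501).

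Of the 13 amino acid breakdown and urea cycle genes near members 9 fell with GR loss, with a median of -0.90 against 0.08 for all genes. Sds, which breaks down serine, was 392, 288, 275 and 228 against 84.1, 75.9, 77 and 123 (-1.71, SE 0.19, adjusted p = 0.000599), and Gldc of glycine breakdown was 56.9, 44.9, 45.1 and 40.7 against 9.61, 11.4, 9.25 and 18.7 (-1.94, SE 0.20, adjusted p = 0.000487). Arg1, the last urea cycle enzyme, was 974, 852, 943 and 1001 against 430, 427, 401 and 537 (-1.08, SE 0.11, adjusted p = 0.000525), and Cps1, the first, was 1000, 795, 773 and 843 against 471, 421, 412 and 524 (-0.90, SE 0.12, adjusted p = 0.00186). All 4 mice after AAV-CRE lay below all 4 controls for each of these genes. Among genes of fatty acid handling, higher values were found for Acot3, a peroxisomal thioesterase, at 5.21, 1.8, 2.84 and 0.514 against 40.9, 51.4, 50.9 and 19.3 (3.90, SE 0.47, adjusted p = 0.00115). Cyp4a10, an omega-hydroxylase, was higher too, at 70.1, 18.7, 56.7 and 8.4 against 163, 384, 141 and 70.1 (2.46, SE 0.65, adjusted p = 0.0472). Its lowest value after AAV-CRE and its highest control differ only before rounding, where the groups did not overlap. The 3 erythroid markers were higher after AAV-CRE, summing to 331 to 623 against 223 to 289 RPKM, and their part in the results was not tested.

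The libraries labelled IRSdKO, where Irs1 but not Irs2 RNA passed the test, differed from IRSfl in 247 of 973 genes near a member (17.4% of all tested genes changed), 130 higher and 117 lower (121 and 133 with median-ratio scaling, where the larger direction turned), and the share higher was 13.4% near members, 10.9% near isolated shared peaks, 8.1% near unshared peaks and 8.51% without a peak, against 9.02% of all genes. The share lower was 12% against 8.36% of all. Igfbp1 was 28, 73.7, 55.6 and 47.4 in IRSfl and 351, 532, 559 and 509 in IRSdKO (3.30, SE 0.27, adjusted p = 0.000638), and its IRSdKO values lie at the level where this experiment's values are compressed. Lepr, the leptin receptor, with 5 members near it, was 4.93, 4.46, 3.28 and 2.42 against 78.6, 193, 198 and 191 (5.22, SE 0.32, adjusted p = 0.000307). IRSdKO mouse 1 was the lowest of its group in both genes but above all controls. Ppp1r3g, a glycogen-targeting subunit of protein phosphatase, was 3.44, 1.36, 0.235 and 0.108 against 13.1, 56.9, 51.1 and 78.8 (4.97, SE 0.69, adjusted p = 0.00422).

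Of the 7 fatty acid oxidation genes near members 5 rose in IRSdKO, with a median of 0.87 against 0.03 for all genes, led by Pdk4 (3.56, SE 0.51, adjusted p = 0.0043), a kinase that inhibits pyruvate dehydrogenase. G6pc was 118, 189, 110 and 171 against 277, 285, 278 and 295 (0.98, SE 0.16, adjusted p = 0.00676), without overlap. Pck1 at 423, 467, 377 and 429 against 513, 482, 500 and 457 did not pass the test (0.21, adjusted p = 0.0788), and nor did Tat (0.19, adjusted p = 0.0517), at levels where this experiment's values are compressed. Hsd3b5, a steroid dehydrogenase, was among the falls, at 97.4, 39.4, 56.1 and 49.6 against 4.25, 1.18, 5.67 and 1.94 (-4.12, SE 0.42, adjusted p = 0.00132). Endothelial markers summed to 132 to 165 RPKM in IRSdKO and 104 to 133 in IRSfl (4 of 6 higher), and Kupffer and macrophage markers to 279 to 351 and 159 to 293 (2 of 7 higher). Cholangiocyte markers summed to 7.87 to 13.9 against 19.7 to 46.2 (2 of 4 lower, Krt7 and Spp1), the hepatocyte genes Ttr and Serpina1c and the erythroid gene Alas2 were lower, and the stellate gene Dcn was higher, and their part in the results was not tested.

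In lean mice of the diet study the meal changed 278 of 925 genes near a member (23.4% of all tested genes changed), 123 higher and 155 lower (83 and 185 with median-ratio scaling). The share lower was 16.8% near members, 9.67% near isolated shared peaks, 6.44% near unshared peaks and 4.88% without a peak, with 7.25% of all genes, and the share higher was 13.3% against 16.1% of all. Of the 9 glucocorticoid-induced genes near a member 7 fell, with a median of -2.0 against 0.08 for all genes, and of the 9 FOXO-linked genes 6 fell, with a median of -1.46. In obese mice 1 of 9 fell in each list, with medians of -0.21 and -0.24. The glucocorticoid-induced genes fell in 2 of 9 after vehicle and in 3 of 8 in uninjected mice, and the FOXO-linked genes in 4 of 9 in both. Endothelial markers summed to 45.1 to 52.2 RPKM after the meal and 63 to 76.2 before it (5 of 6 lower), and their part in the results was not tested.

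In obese mice the meal changed 100 of 925 genes near a member (7.66% of all tested genes changed), 54 higher and 46 lower (51 and 59 with median-ratio scaling, where the larger direction turned), with 4.97% lower and 5.84% higher near members against 2.5% and 5.16% of all genes. Igfbp1 was 246, 222 and 259 RPKM in unfed lean and 1.39, 4.3 and 3.26 in fed lean mice (-6.22, SE 0.42, adjusted p = 6.3e-05), and 15.9, 26 and 16.1 in unfed and 5.9, 4.38 and 1.48 in fed obese mice (-2.29, SE 0.42, adjusted p = 0.0118). Pck1 was 2495, 2498 and 2304 against 313, 637 and 356 in lean mice (-2.55, SE 0.26, adjusted p = 0.000293), and 1381, 1147 and 810 against 712, 737 and 527 in obese mice, where the groups did not overlap but the test was not passed (-0.74, adjusted p = 0.106). Scd1, a fatty acid desaturase, was 2668, 321 and 163 in unfed and 32.7, 40.6 and 67.7 in fed obese mice (-3.52, SE 0.82, adjusted p = 0.0282). Elovl3, an elongase, was 25.2, 86.8 and 41.6 against 165, 188 and 303 (2.22, SE 0.52, adjusted p = 0.0293).

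The meal response differed between obese and lean mice in 21 of 925 genes near a member (0.745% of all tested genes), 20 with a higher and 1 with a lower value of the interaction term (2.16% higher near members, 0.697% near isolated shared peaks and 0.416% of all genes). Tat was 2455, 2328 and 2253 in unfed lean and 497, 649 and 627 in fed lean mice, but 599, 670 and 403 in unfed and 589, 520 and 522 in fed obese mice (interaction 1.99, SE 0.24, adjusted p = 0.00769). Ddit4 was 76.4, 43.4 and 62.5 against 4.95, 5.37 and 10.6 in lean and 2.19, 3.42 and 1.77 against 2.42, 5.18 and 2.63 in obese mice (3.45, SE 0.48, adjusted p = 0.0105). In both genes the unfed lean mice held the high values, and unfed and fed obese mice overlapped. Igfbp1 had an interaction of 3.93 (SE 0.59, adjusted p = 0.0183), and G6pc of 2.56 (SE 0.50, adjusted p = 0.0464), a call lost in 14 of 21 alternatives.

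A few genes moved in opposite directions with the meal. Herpud1, a protein of endoplasmic reticulum quality control with 6 members near it, was 354, 412 and 365 against 214, 300 and 173 in lean and 222, 224 and 193 against 370, 424 and 402 in obese mice (interaction 1.65, SE 0.23, adjusted p = 0.0114). Slc25a25, a mitochondrial carrier, fell in lean mice from 95.1, 136 and 105 to 31.8, 55.8 and 41.3 and rose in obese mice from 30.4, 48.7 and 45.8 to 67.8, 76.3 and 75.6 (2.22, SE 0.31, adjusted p = 0.0105). Cyp7a1 was the 1 gene lower on the interaction, at -1.82 (SE 0.36, adjusted p = 0.0464), with the call lost in 16 of 21 alternatives. It rose in lean mice (1.52, adjusted p = 0.00229), while its change in obese mice did not pass the test (-0.30, adjusted p = 0.501).

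**Figure D4:**
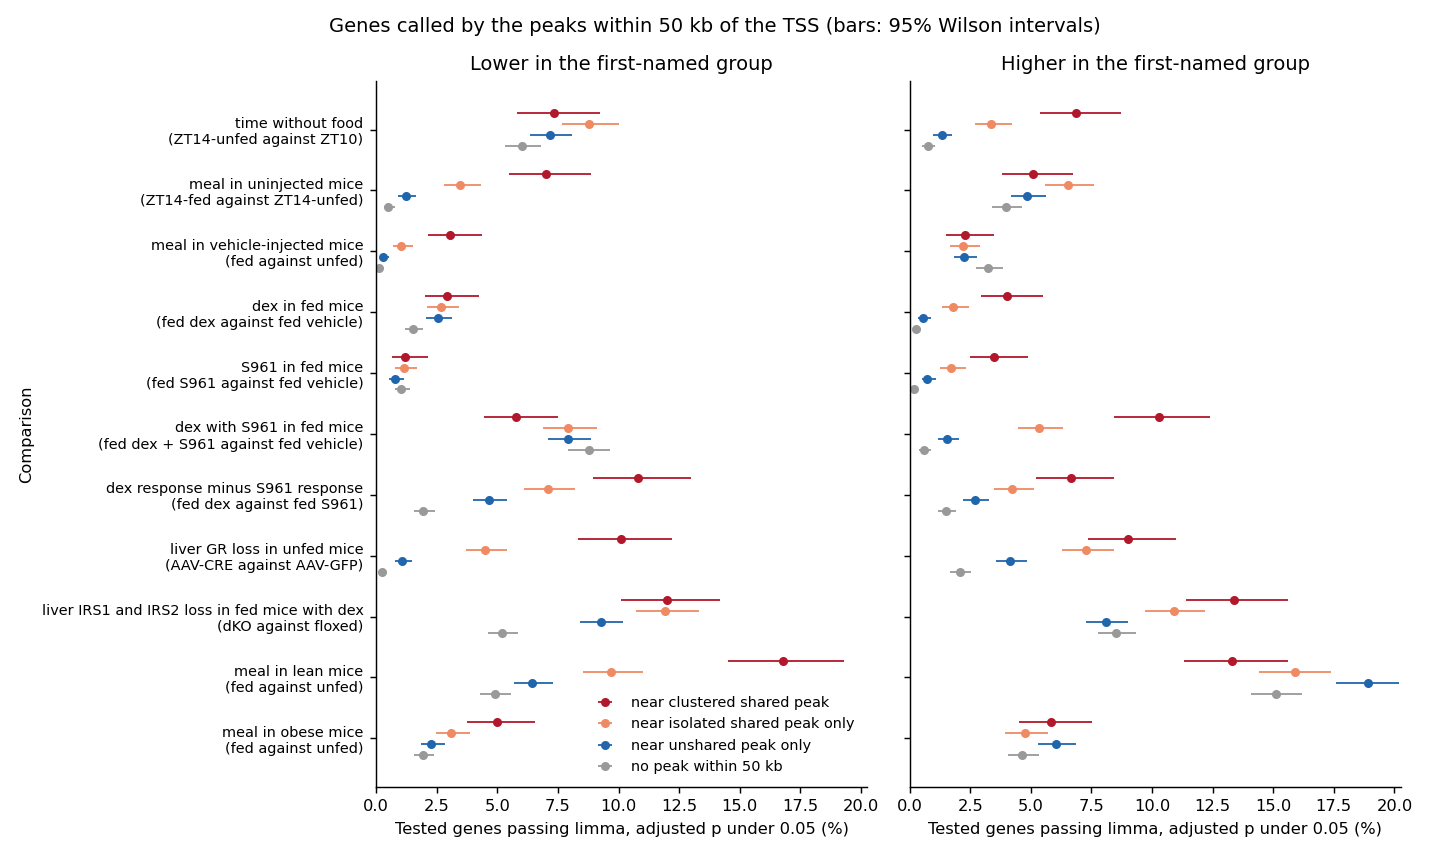
Tested genes (%) that passed limma at an adjusted p under 0.05, lower (left) or higher (right) in the first-named group, with 95% Wilson intervals. Genes are split by the kind of peak within 50 kb, taken in the order clustered, isolated shared, unshared and none. Of the 4 kinds, genes near clustered peaks have the highest share lower after GR loss (10.1%) and after the meal in lean mice (16.8%).

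**Figure D5:**
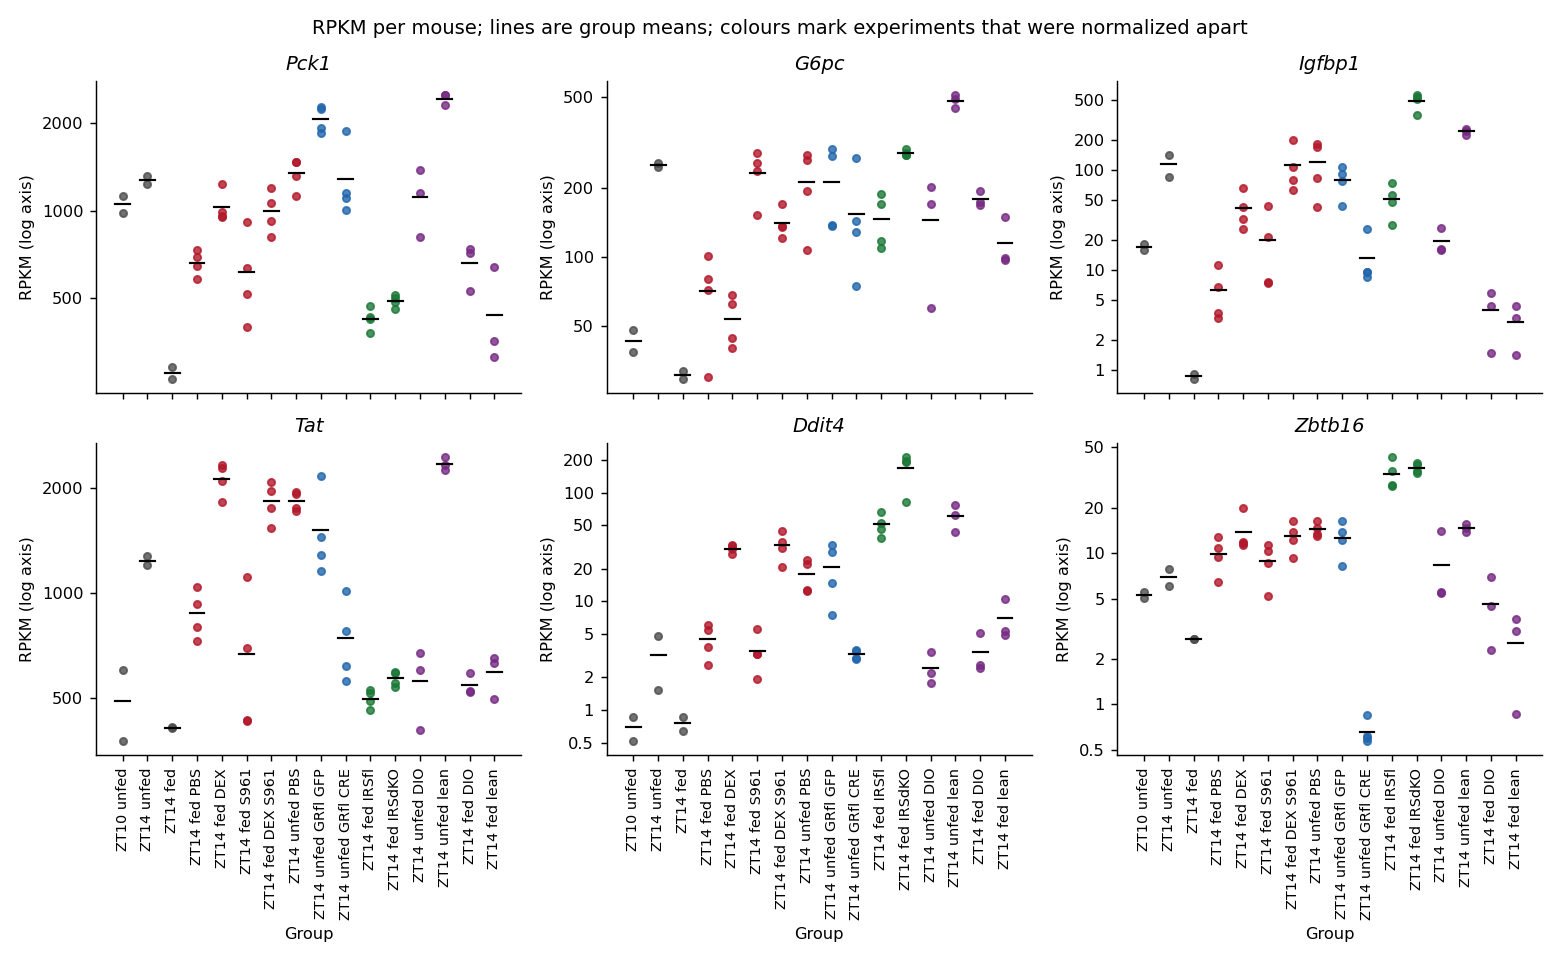
RPKM per mouse on a log axis, with group means as lines and colours for experiments that were normalized apart. Pck1, G6pc, Igfbp1, Tat and Ddit4 have clustered peaks within 50 kb of the TSS, and Zbtb16 has its nearest at 83826 bp. Unfed lean mice have Igfbp1 between 222 and 259 RPKM, and fed lean mice between 1.39 and 4.3.

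Over all settings tried, the share of genes called near members in either direction, divided by that of all tested genes, stayed above 1 in each of the 12 comparisons. It was lowest at 1.17 for the meal in lean mice and highest at 4.46 for GR loss, which ranged from 2.21. By single direction, the share near members was in some cases below that of all genes, as given above. Genes near members were more highly expressed, in the diet study with a median of 15.1 RPKM against 5.61 for all tested genes. No setting matched the level of expression.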

How the data were processed

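Members and gene lists were chosen with earlier results of these data known. The authors aligned reads to mm9 with STAR and normalized RNA reads to RPKM per RefSeq transcript, which is the unit of the deposited values, and DESeq2 and HOMER are named in the submitters' processing notes. The authors called GR and FOXO1 peaks per replicate against input and kept those concordant between both unfed replicates with BEDtools, and DHSs were called on the combined reads of all DNase libraries. The lists give positions only, so peaks were compared by position, with no values per library and no test.

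Each symbol was taken once, from the RefSeq ID with the highest mean, and 300 of 35707 IDs had no symbol. The 5 experiments (6, 20, 8, 8 and 12 libraries) were each given to limma (version 3.58.1, R 4.3.3) as log2(RPKM + 0.5), keeping genes whose mean reached 0.5 RPKM, without a replicate block and with Benjamini-Hochberg adjustment over all genes tested (11003 to 13083). Genes were placed by the GENCODE annotation of mm9, and motifs were read in 180 bp windows from NCBIM37 with Python 3.11.15, numpy 2.4.6, pandas 2.3.3, scipy 1.17.1 and matplotlib 3.10.9. RPKM divides by depth and length only, so a few abundant genes can shift it, and the median of all genes moved by -0.14 to 0.12 (log2) between groups. Read counts per library were not used here, and low values rest on few reads. Scripts were tested on simulated data.

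The genes named were those nearest the 12 largest clusters, the study's fasting genes with a member within 50 kb, the deleted genes, and the 3 largest rises and falls near members in each comparison without overlap. Others were taken from the lists, or after their values were seen. Some genes that this rule names are not reported here. The labels do not say whether equal replicate numbers mark a shared batch. The lowest correlation of deviations between same-numbered libraries was -0.202 to -0.0281 over the experiments, which does not show whether some of the pairs share an effect. In the injected mice the median was 0.143 and the highest 0.606, against a median of -0.0531 for other pairs. The main fit did not take the numbers as pairs, and whether they mark a shared effect was not tested. Counts with the replicate block are also given. Alternatives were pseudocounts, filters, scalings, no variance trend, thresholds, distances, a replicate block, a term for replicate 4 of the injected mice, the compared groups alone, and each library left out.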

Additional observations from a re-analysis of the deposited data

Results flagged for a closer look

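Among genes near clusters whose meal response differed between obese and lean mice by the interaction term, the value was 3.93 (log2) for Igfbp1, 3.45 for Ddit4, 2.56 for G6pc, 1.99 for Tat and -1.82 for Cyp7a1, and 21 genes near members passed in all.

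A single mouse lay far from its group in 54 of 520 group values, and chance flags about 1 in 20 groups. IRSdKO mouse 1 stood apart in 8 genes, with 0 RPKM for Mir186, 27.4 for Bcl6, 0.272 for Irs2, 28.8 for Hjurp, 51.5 for Hes6, 81.4 for Ddit4, 39.8 for Hhex and 78.6 for Lepr, and IRSdKO mouse 3 at 0.321 for Irs1. AAV-CRE mouse 3 stood apart in 7, with 6.09 for Irf2bp2, 1878 for Pck1, 25.6 for Igfbp1, 40.5 for Gm15441, 119 for Txnip, 2.46 for Gadd45b and 1124 for Mup20, and mouse 4 at 0.847 for Zbtb16 and 19.7 for Tuba1c. After AAV-GFP, mouse 1 had 86.4 for Insig2, 144 for Elovl3 and 4.08 for Pitx3, and mouse 4 had 2.27 for Ces4a and 7.48 for Adh6-ps1. In IRSfl, mouse 1 had 2.21 for Irs1, 43.4 for Rgs16 and 27.1 for Acot4, mouse 2 had 10.7 for Gm16551 and mouse 4 had 97.3 for Mup20.

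Among injected mice, dex mouse 4 had 19.8 for Zbtb16, 28.7 for Bcl6, 15.4 for Arl4d, 10.3 for Tbc1d2b and 0.839 for Pitx3, and dex mouse 2 had 2.2 for Mir186 and 1236 for Pck1. Unfed vehicle mouse 4 had 5.26 for Ptp4a1, 24.8 for Onecut1, 12.3 for Nr3c1 and 45.3 for Srsf5, and mouse 3 had 12.8 for Hjurp. Fed vehicle mouse 4 had 64.1 for Klf15, 6.21 for Cyp2u1 and 119 for Creld2, mouse 1 had 65.1 for Insig2 and 1.17 for Mir27b, and mouse 3 had 61.6 for Lcn2. S961 mouse 1 had 37.4 for Onecut1, 3.72 for Ces4a, 68.3 for Paqr9 and 3.54 for Lepr, mouse 2 had 101 for Lcn2 and mouse 4 had 14.1 for Arl4d. After both agents, mouse 1 had 10.9 for Bcl6 and mouse 3 had 5.28 for Gm16551.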

How the results depend on the processing

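With a cluster distance of 5 kb, 1224 peaks were clustered. The share of members within a TSS distance was 10.5% at 1 kb and 30.4% at 5 kb, and 70.4% overlapped a DHS by at least 50% of the peak. In windows of 100 and 300 bp the GRE core was in 14.5% and 21.7% of members, and the forkhead motif in 6.13% and 15%.

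The number of genes called near members depended on the settings, and the cause was not tested. At an adjusted p under 0.01 the counts were 20 for time without food, 26 for the meal in uninjected mice, 17 for the meal after vehicle, 27 for dex, 14 for S961, 79 for both agents, 94 for dex against S961, 81 for GR loss, 88 for IRS loss, 142 for the lean meal, 19 for the obese meal and 2 for the interaction. Within 20 kb in place of 50 kb they were 73, 64, 32, 36, 24, 94, 99, 108, 149, 160 and 52 in the same order without the interaction, and the lean meal gave 427 within 100 kb. With clusters by 5 kb they were 71 for the meal in uninjected mice, 30 for the meal after vehicle, 26 for S961, 95 for both agents, 101 for dex against S961 and 179 for the lean meal. Without the filter on low values, time without food gave 32, the meal in uninjected mice 26 and the interaction 5. With only the groups compared in the fit, time without food gave 53, dex 23, S961 7, dex against S961 88 and the obese meal 10.

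The replicate block, which treats equal replicate numbers as pairs, gave 83 for time without food, 104 for the meal after vehicle, 134 for dex, 81 for S961, 235 for both agents and 13 for the interaction, and 75, 236, 147, 201, 257 and 94 for the meal in uninjected mice, dex against S961, GR loss, IRS loss, the lean meal and the obese meal. A term for replicate 4 of the injected mice gave 118 for the meal after vehicle, 149 for dex, 88 for S961, 239 for both agents and 243 for dex against S961. Own-number correlations were highest for 11 of 20 libraries there.

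Leaving out each library in turn gave 31 (without ZT10 replicate 1) to 137 (without ZT14-unfed replicate 1) for time without food, 10 (without ZT14-fed replicate 2) to 134 for the meal in uninjected mice, 19 (without unfed vehicle replicate 2) to 69 for the meal after vehicle, 33 (without dex replicate 2) to 87 for dex, 23 (without vehicle replicate 2) to 63 for S961, 97 (without vehicle replicate 2) to 166 for both agents, 124 to 169 for dex against S961, 106 (without AAV-CRE replicate 2) to 155 for GR loss, 138 (without IRSdKO replicate 2) to 365 (without IRSdKO replicate 1) for IRS loss, 191 to 327 for the lean meal, 27 (without fed DIO replicate 2) to 130 for the obese meal, and 5 (without fed DIO replicate 2) to 39 for the interaction. Other libraries also moved a count by over 1.5 times. Time without food gave 32 without ZT10 replicate 2, 52 without ZT14-unfed replicate 2, and 54 and 61 without ZT14-fed replicates 1 and 2, and the meal in uninjected mice gave 54 without ZT14-unfed replicate 2 and 21 without ZT14-fed replicate 1. The meal after vehicle gave 31, 27 and 31 without fed vehicle replicates 1, 2 and 3, and 26 and 27 without unfed vehicle replicates 1 and 3. Dex gave 38 without vehicle replicate 2 and 37 without dex replicate 1, and S961 gave 27 without vehicle replicate 1 and 25 without S961 replicate 2 or 4. IRS loss gave 144 and 145 without IRSdKO replicates 3 and 4, and the obese meal 33 without fed DIO replicate 3. The interaction gave 39 without unfed DIO replicate 1 or 2, 9 without unfed DIO replicate 3 or fed lean replicate 1, 11 without fed DIO replicate 1, 7 without unfed lean replicate 3, and 6 without unfed lean replicate 2 or fed lean replicate 3. Of 236 calls of named genes, 121 held under every alternative, 115 were lost under at least 1, and 0 changed direction.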
